A study of Mus musculus with 94 samples.

Results

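The genes described here are 10 of the 46078 mouse genes in the count table. They are a chosen set from peptide presentation on major histocompatibility complex (MHC) molecules and its control. They were taken by name. The 5 class I members are H2-K1, H2-D1, B2m, Tap1 and Tapbp, and the 5 class II members are Cd74, H2-Aa, H2-Ab1, H2-Eb1 and Ciita. All 10 were found under 1 identifier each, for example ENSMUSG00000073411 for H2-D1 and ENSMUSG00000073421 for H2-Ab1. They were measured in single bone marrow cells of female C57BL/6 mice, sorted as live, lineage-negative (Lin-), Sca1-negative cells bearing the IgE receptor FcεRI. A CD34- gate and a CD34+ gate gave 47 cells each, without treatment, and the labels give no age. The design names 3 mice but the labels tie no cell to a mouse, and each gate is treated as 1 sample. Differences between the gates therefore carry no test, the intervals given cover counting error only, and an SD over cells is a spread from cell to cell.

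Class I molecules sit on nearly all nucleated cells. A heavy chain, in these mice H2-K or H2-D, pairs with beta-2-microglobulin and displays peptides cut in the cytosol, which the TAP transporter pumps into the endoplasmic reticulum and tapasin helps to load. Class II molecules are alpha-beta pairs found mainly on dendritic cells, macrophages and B cells. They travel with the invariant chain encoded by Cd74, display peptides from endocytosed material, and are switched on by the coactivator CIITA. Whether basophils make class II themselves or acquire it from other cells has been debated.

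Of the 94 cells, 92 had enough reads to be kept, 46 in each gate. The CD34-negative cells had between 262944 and 938322 gene reads each (median 737059), and the CD34-positive cells between 374011 and 1154738 (median 633178). The median number of genes with a read was 5303.5 for the CD34-negative gate and 7511.5 for the other gate, and a median cell had 6.87 and 14.4 gene reads for each ERCC spike-in read. Levels are in CPM, reads of a gene per 1000000 gene reads. Folds compare the summed reads of the gates as the log2 of CD34-positive over CD34-negative CPM, with 1 CPM added to each. Its median over the 12460 genes with a read in at least 10 kept cells was 0.19.

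1 library stood apart and decides most of the class II values, so it comes first. The library labelled CD34-negative cell 10 had the fewest gene reads of the 92 (262944), with 4951 genes detected. Fcer1a and Ms4a2, which encode chains of FcεRI itself, had 2 reads each in it, or 7.61 CPM, while no other cell was below 167 CPM for Fcer1a or 481 CPM for Ms4a2. Gata2, a transcription factor of the lineage, had 1 read there and at least 570 CPM in every other cell. Hdc, the histamine-forming enzyme, had 0 reads there and at least 48.4 CPM elsewhere. The other basophil genes did not set it apart singly. Prss34, Mcpt8, Cpa3 and Cd200r3 were at 118, 45.6, 26.6 and 26.6 CPM in cell 10, and some other cells had less. Il3ra had 0 reads there and in some other cells. Summed over 9 basophil genes, cell 10 had 236 CPM and the other 91 cells between 5253 and 174247 CPM. The basophil label of cell 10 therefore goes against its levels of Fcer1a, Ms4a2, Gata2 and Hdc and against this sum. Its identity was not tested, and values that rest on it are given with and without it.

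Other marker lists in cell 10 were mixed. Of 6 monocyte and macrophage genes 5 had reads, among them Ccr2 with 257, Csf1r with 254, Lyz2 with 44 and Adgre1 with 24 reads, while Ly6c2 had 0. The 6 genes summed to 2213 CPM, against 0 to 2741 CPM in the other CD34-negative and 0 to 813 CPM in the CD34-positive cells. Of 8 dendritic cell genes 3 had reads, Itgax with 117, Bst2 with 42 and Batf3 with 41, while Flt3, Zbtb46, Xcr1, Siglech and Cd209a had 0. Their sum was 761 CPM, against at most 321 and 391 CPM in the other cells of the 2 gates. Of 6 B cell genes only Cd79b had reads (63), and Ms4a1, Pax5, Ebf1, Cd79a and Ighm had 0. The complement genes C1qa, C1qb and C1qc, chosen after their values were seen, had 482, 820 and 412 reads in cell 10, and each had reads in 1 other cell.

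**Figure D1:**
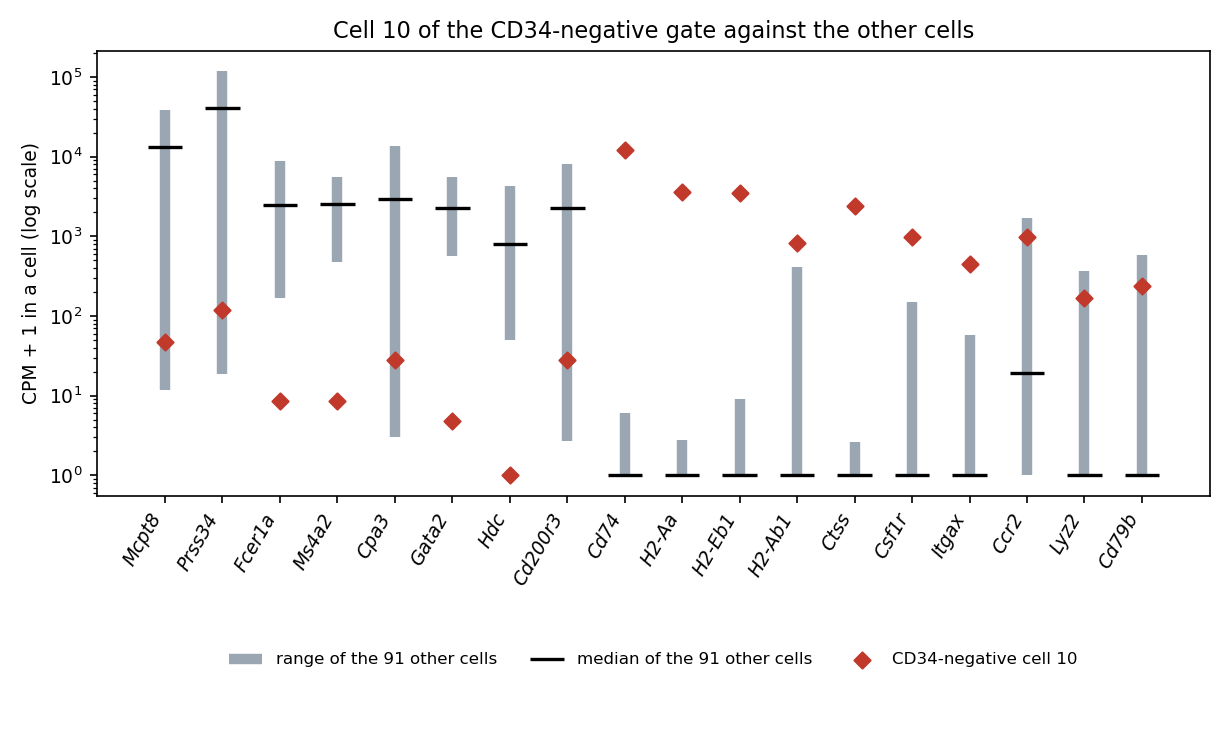
Level of 8 basophil genes, 4 class II members, Ctss and 5 marker genes of other cell types in the library labelled CD34-negative cell 10 (red diamonds), with the range (grey bar) and median (black line) of the 91 other kept cells. The y axis is CPM plus 1 on a log scale. Cell 10 lies under the whole range for Fcer1a, Ms4a2, Gata2 and Hdc and above it for Cd74, H2-Aa, H2-Eb1, H2-Ab1, Ctss, Csf1r and Itgax.

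The class I heavy chain genes lie on chromosome 17, H2-K1 at chr17:33996017-34000347 on the minus strand and H2-D1 at chr17:35262730-35267499 on the plus strand (mm10, GENCODE M21). Their coding sequences of 1107 and 1086 bases were 91.5% identical over 1077 aligned bases, so reads of 50 bases can be shared. The stretch where they differ most, in which capitals mark the 15 differences in 60 bases, is shown with the longest run they have in common, because the counts can tell the genes apart only where they differ.
H2-K1 coding bases 492 to 551: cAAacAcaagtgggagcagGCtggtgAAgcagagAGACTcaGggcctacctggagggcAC
H2-D1 coding bases 501 to 560: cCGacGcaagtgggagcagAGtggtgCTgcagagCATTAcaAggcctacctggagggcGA
Run of 91 bases shared by H2-K1 (from base 738) and H2-D1 (from base 747): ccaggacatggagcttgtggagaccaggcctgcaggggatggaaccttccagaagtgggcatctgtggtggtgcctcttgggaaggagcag
Of all 50-base windows of the annotated transcripts, 90.4% for H2-K1 and 87.2% for H2-D1 occurred in no other gene. The category for reads aligned to several places held 0 reads in the deposited table, and how such reads were treated is not given in the sources used here.

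The 250 bases upstream of the RefSeq start sites (GRCm38.p6) were read for 7 of the 10 members, H2-K1 with 2 start sites of which 1 is shown. H2-Ab1, Cd74 and Ciita were not among them. Capitals mark matches to 4 motifs on either strand. They are CCAAT, the letters of the Y box, TTTCNNTTC, a short form of an interferon response element, the longer consensus core of that element (ISRE), which has 1 more T in its second part, and GGGGATT, the start of a kappaB site. These stretches, from 180 to 31 bases before the start, are shown for the heavy chain H2-K1, its partner B2m and 2 class II genes.
H2-K1 (chr17:34000378-34000527, minus strand): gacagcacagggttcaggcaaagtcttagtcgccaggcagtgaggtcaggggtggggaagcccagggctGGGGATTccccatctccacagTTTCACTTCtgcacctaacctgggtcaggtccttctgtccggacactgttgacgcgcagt
B2m (chr2:122147507-122147656, plus strand): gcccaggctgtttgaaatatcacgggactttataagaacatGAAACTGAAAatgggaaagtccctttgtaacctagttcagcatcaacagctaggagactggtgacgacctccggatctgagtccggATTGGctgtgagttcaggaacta
H2-Aa (chr17:34287854-34288003, minus strand): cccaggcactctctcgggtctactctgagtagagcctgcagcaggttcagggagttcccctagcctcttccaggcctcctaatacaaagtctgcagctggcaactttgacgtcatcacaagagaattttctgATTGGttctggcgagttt
H2-Eb1 (chr17:34305687-34305836, plus strand): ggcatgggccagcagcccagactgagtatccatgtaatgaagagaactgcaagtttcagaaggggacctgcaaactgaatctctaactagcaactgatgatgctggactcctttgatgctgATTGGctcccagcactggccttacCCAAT
CCAAT, TTTCNNTTC and GGGGATT were all in the 250 bases of H2-K1 and of H2-D1, without the ISRE core. B2m, H2-Aa and Tap1 had 1 CCAAT match each, and H2-Eb1 and Tapbp had 2 each. Of these 5 none had TTTCNNTTC, B2m alone had the ISRE core, read on the other strand, and H2-Aa alone had GGGGATT, at the far end of its window. Among 32851 promoter windows of that length 33.85% held CCAAT, 6.31% TTTCNNTTC, 2.98% the ISRE core and 2.76% GGGGATT. A match describes the letters and shows no binding.

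All cells of both gates carried class I message. H2-K1, H2-D1 and B2m had reads in 46 of 46 kept cells of each gate. Their summed level was 3794 CPM (95% counting interval 3773 to 3815) in the CD34-negative and 3862 CPM (3839 to 3884) in the CD34-positive gate, a log2 fold of 0.025 (0.0092 to 0.042), or 0.046 without cell 10. Scaled by ERCC reads, which put the median of all genes at 1.04, the sum had a log2 fold of 0.99. Per cell the sum ran from 1051 through a median of 3378 to 10440 CPM in the CD34-negative gate, and from 998 through 3218 to 10762 CPM in the CD34-positive gate. The 2 ranges overlapped almost wholly. Cell 2 was the lowest of each gate, and cell 10 was the highest CD34-negative cell. The sign of the small difference turned when any 1 of CD34-positive cells 15, 37, 43 or 46 was left out, with values from -0.041 to -0.0030.

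Scaled by gene reads the 3 genes went different ways within that even sum, while with ERCC scaling all 3 were higher in the CD34-positive gate, B2m at 1.63, H2-K1 at 1.32 and H2-D1 at 0.44. H2-D1 was at 2179 CPM (2164 to 2195) in the CD34-negative and 1516 CPM (1502 to 1530) in the CD34-positive gate, a log2 fold of -0.52 (-0.55 to -0.50). The lowest, median and highest cells had 385, 1965 and 5640 CPM in the CD34-negative gate and 345, 1169 and 5191 CPM in the CD34-positive gate, so the gates overlapped over nearly their whole range. No cell of the 92 was under 345 CPM of H2-D1.

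H2-K1, the other heavy chain, was at 711 CPM (702 to 720) in the CD34-negative and 911 CPM (900 to 922) in the CD34-positive gate, a log2 fold of 0.36 (0.32 to 0.39). Its cells ran from 3.28 through a median of 596 to 3054 CPM and from 2.33 through 846 to 3281 CPM. A few cells were nearly without H2-K1 while H2-D1 was well read in them. CD34-negative cell 3 had 3.28 CPM of H2-K1 and 3192 CPM of H2-D1, CD34-positive cell 2 had 2.33 and 895 CPM, and CD34-negative cell 2 had 14.4 and 967 CPM. B2m, the light chain, at chr2:122147686-122153083 on the plus strand, was at 904 CPM (894 to 914) and 1435 CPM (1422 to 1449), a log2 fold of 0.67 (0.64 to 0.70) and 0.71 without cell 10. B2m ran from 20.8 through 727 to 4632 CPM in CD34-negative cells, cell 10 being the highest, and from 100.2 through 1213 to 4062 CPM in CD34-positive cells.

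The ratio of H2-D1 to H2-K1 reads, which no scaling can move within a cell, had a median of 3.20 over the CD34-negative cells (quartiles 2.10 and 4.78) and 1.65 over the CD34-positive cells (quartiles 1.06 and 2.65). Over summed reads it was 3.07 and 1.66. It is not corrected for length. The ratio ran from 0.221 to 972 and from 0.397 to 384, so the gates overlapped. Per kilobase of annotated exon, with cell 10 left out, B2m was the highest of the 10 members in both gates, at 1017 and 1669 CPM per kilobase. H2-D1 followed at 841 and 588, H2-K1 at 237 and 310, Tapbp at 109 and 78.6, and Tap1 at 18.7 and 38.3 CPM per kilobase. With these lengths that order was the same in the 2 gates. The lengths count every annotated exon of a gene, retained introns included, which gave H2-D1 2579 bases and B2m 860 bases. The longest coding transcript of H2-D1 has 2102 bases, while B2m has 860 bases either way. The lead of B2m over H2-D1 in the CD34-negative gate therefore depends on the length used.

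**Figure D2:**
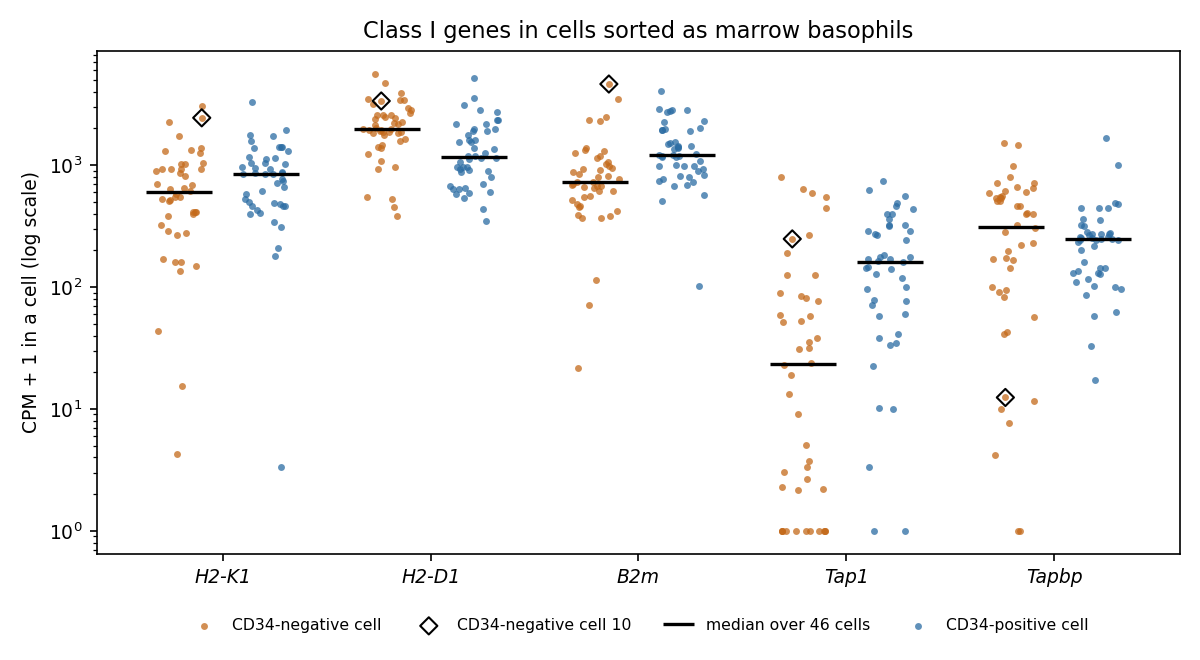
Level of the 5 class I members in each kept cell, as CPM plus 1 on a log scale, with 46 CD34-negative (orange) and 46 CD34-positive (blue) cells. Black lines are medians and open diamonds mark CD34-negative cell 10. The clouds of the 2 gates overlap for every gene, while the Tap1 medians lie at 22.5 and 161 CPM.

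**Figure D3:**
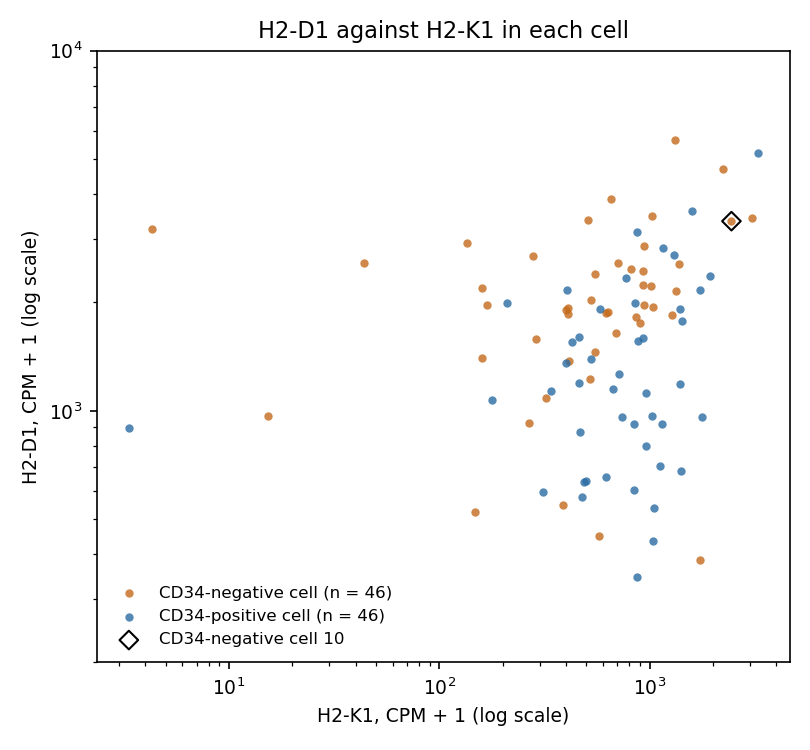
H2-D1 against H2-K1 in each of the 92 kept cells, both as CPM plus 1 on log scales, uncorrected for gene length. Cells nearly without H2-K1, at the left, still had H2-D1, and the CD34-negative cells lie on the whole further towards H2-D1 (median read ratio 3.20 against 1.65).

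The peptide-loading members also split. Tap1, 1 of the 2 chains of the peptide transporter, at chr17:34187553-34197225, was at 103.4 CPM (100.01 to 106.9) in the CD34-negative and 210 CPM (205 to 215) in the CD34-positive gate. Its log2 fold of 1.01 (0.93 to 1.10) lay at the 2-fold line, and leaving out 1 cell put it just under that line for 45 of 92 cells. Tap1 was read in 35 of 46 CD34-negative cells (76.1%, exact Clopper-Pearson 95% interval 61.2 to 87.4%) and in 44 of 46 CD34-positive cells (95.7%, 85.2 to 99.5%). With each cell drawn down to 200000 gene reads these counts were 30 and 42. Its cells ran from 0 through 22.5 to 801 CPM and from 0 through 161 to 734 CPM, so the medians were further apart than the sums. The highest CD34-negative cell, cell 30, held enough of the reads that the log2 fold was 1.32 without it. Annotated exons of Tap1 overlap those of Psmb9, on the other strand, over 3.87% of their length.

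Tapbp (chr17:33915899-33929292) encodes tapasin, which bridges the transporter and the heavy chain. Its level was at 392.4 CPM (386 to 399) in the CD34-negative and 285 CPM (279 to 291) in the CD34-positive gate, a log2 fold of -0.46 (-0.51 to -0.40), and 0.50 when scaled by ERCC reads. It was read in 44 and 46 of 46 cells and ran from 0 through 311 to 1511 CPM and from 16.3 through 245 to 1661 CPM. An antisense gene, Gm19412, overlaps 24.9% of its exons, and reads of the 2 cannot be told apart without the strand setting. In cell 10 Tapbp had 11.4 CPM, while B2m, H2-K1 and H2-D1 had 4632, 2445 and 3362 CPM.

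Across single cells the class I members were only loosely tied to each other. Among the 10 pairs of the 5 genes Spearman's rho ran from -0.19 to 0.52 (median 0.05) over 45 CD34-negative cells without cell 10, and from 0.01 to 0.54 (median 0.28) over 46 CD34-positive cells. H2-K1 and B2m were at 0.52 in each gate, H2-K1 and H2-D1 at 0.29 and 0.24, and Tap1 and H2-K1 at -0.18 and 0.01. Per the labels' protocol the cells of both gates were sorted into a shared plate, and levels in a cell share its total, so these values are descriptions. Over all 92 cells, the genes most like B2m among 5567 read in at least 46 cells were H2-Q7 (rho 0.59), H2-Q6 (0.57) and H2-K1 (0.56). H2-Q7 and H2-Q6 are class I genes whose transcripts share part of their sequence with other genes, with 73.5% and 65.0% of 50-base windows found nowhere else. These pooled values also hold the difference between the gates, so the values within the CD34-negative and CD34-positive cells stand beside them, the former over 46 cells with cell 10. After B2m, H2-K1 was most like H2-Q7 (0.41 pooled, 0.35 and 0.42 within) and Rpl14-ps1 (0.41, 0.34 and 0.32). H2-D1 was most like Ctsd (0.55 pooled, 0.37 and 0.51 within), C3ar1 (0.55, 0.33 and 0.37) and Itm2b (0.54, 0.40 and 0.38). Tap1 was most like Ndufa10 (0.52, 0.44 and 0.32), Gm8203 (0.50, 0.40 and 0.36) and Atg12 (0.47, 0.49 and 0.15). Tapbp was most like Ndfip1 (0.41, 0.44 and 0.21), Yipf3 (0.40, 0.48 and 0.15) and Mdh1 (0.39, 0.46 and 0.35). For B2m the values within were 0.51 and 0.65 with H2-Q7, 0.42 and 0.61 with H2-Q6, and 0.55 and 0.52 with H2-K1, where the CD34-negative value was 0.52 without cell 10.

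Message of the class II members was almost absent outside cell 10, with H2-Ab1 as the exception. Cd74 had 3230 CD34-negative and 8 CD34-positive reads, and 3227 of them, 12273 CPM, were in cell 10. The 45 other CD34-negative cells had 3 Cd74 reads in all. H2-Aa, the alpha chain of I-A, at chr17:34282744-34287823 on the minus strand, had 933 reads in cell 10, 3 in the other CD34-negative cells and 1 in the CD34-positive cells. H2-Eb1, the beta chain of I-E, at chr17:34305867-34316674 on the plus strand, had 910, 7 and 9 reads in the same order. Ciita, at chr16:10480059-10528418 on the plus strand, had 31 reads in cell 10, 2 in 1 other CD34-negative cell and 3 in 1 CD34-positive cell. The gate folds of these 4 genes thus describe a single cell: the Cd74 log2 fold was -6.27 with cell 10 and 0.22 without it.

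Over the 91 other cells and 63213201 gene reads there were 11 Cd74, 4 H2-Aa, 16 H2-Eb1 and 5 Ciita reads. No cell had more than 5 Cd74, 1 H2-Aa or 7 H2-Eb1 reads, and 13 of the 91 cells had a read of any of the 3. Over all kept cells 1 of 92, cell 10, had 10 or more such reads (1.09%, Clopper-Pearson interval 0.028 to 5.91%, counting error only). Cells with all of Cd74, H2-Aa, H2-Ab1 and H2-Eb1 numbered 1 of 92, cell 10. H2-Ea-ps, the alpha chain gene of I-E that is a pseudogene in this strain's annotation, had 0 reads.

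H2-Ab1, the beta chain of I-A, was different. It lies at chr17:34257689-34269419 on the plus strand of mm10, and none of its 50-base windows occurred in another gene. The CD34-negative gate had 578 reads of it, 216 of them in cell 10, and the CD34-positive gate 2266, or 17.3 CPM (15.9 to 18.8) and 75.5 CPM (72.4 to 78.6). The log2 fold was 2.06 (1.89 to 2.24), and 2.68 without cell 10, when the CD34-negative level was 10.9 CPM. The CD34-negative cells ran from 0 through a median of 0 to 821 CPM (cell 10), with 313 CPM in cell 29 as the highest other value. The CD34-positive cells ran from 0 through 22.5 to 406 CPM, so high cells occurred in each gate but most CD34-negative cells were at 0. Without cell 29 alone the log2 fold was 2.72.

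H2-Ab1 was read in 9 of 46 CD34-negative cells (19.6%, Clopper-Pearson interval 9.36 to 33.9%), or 8 of 45 without cell 10, and in 32 of 46 CD34-positive cells (69.6%, 54.2 to 82.3%). At 200000 drawn gene reads per cell it was read in 7 and 30 cells. At full depth at least 10 reads were found in 5 and 25. Of the 41 cells with H2-Ab1, 34 had no read of Cd74, H2-Aa or H2-Eb1, and H2-Aa, which encodes its alpha partner, was read in only 2. Across the CD34-positive cells H2-Ab1 had a rho of 0.43 with the number of genes detected and 0.43 with gene reads per ERCC read, both of which were higher in that gate. Across 45 CD34-negative cells these were 0.21 and 0.18. The part of these measures in the gate difference was not tested.

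The annotation of H2-Ab1 has 1 feature that bears on what its reads are. Coding transcript H2-Ab1-201 starts at 34263209, while a processed transcript, H2-Ab1-207, starts at 34257689 with a first exon of 149 bases, 3275 bases past the end of H2-Ob. The table gives 1 count per gene, so which transcript the reads came from was not analysed here. H2-Ob, the neighbouring non-classical beta chain gene, was read in 4 of the 9 CD34-negative cells with H2-Ab1 and in 25 of the 32 CD34-positive ones. Over all kept cells of the gates it was read in 21 and 34 of 46. Its level had a rho with H2-Ab1 of 0.06 over 45 CD34-negative cells and of -0.04 over the CD34-positive cells.

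**Figure D4:**
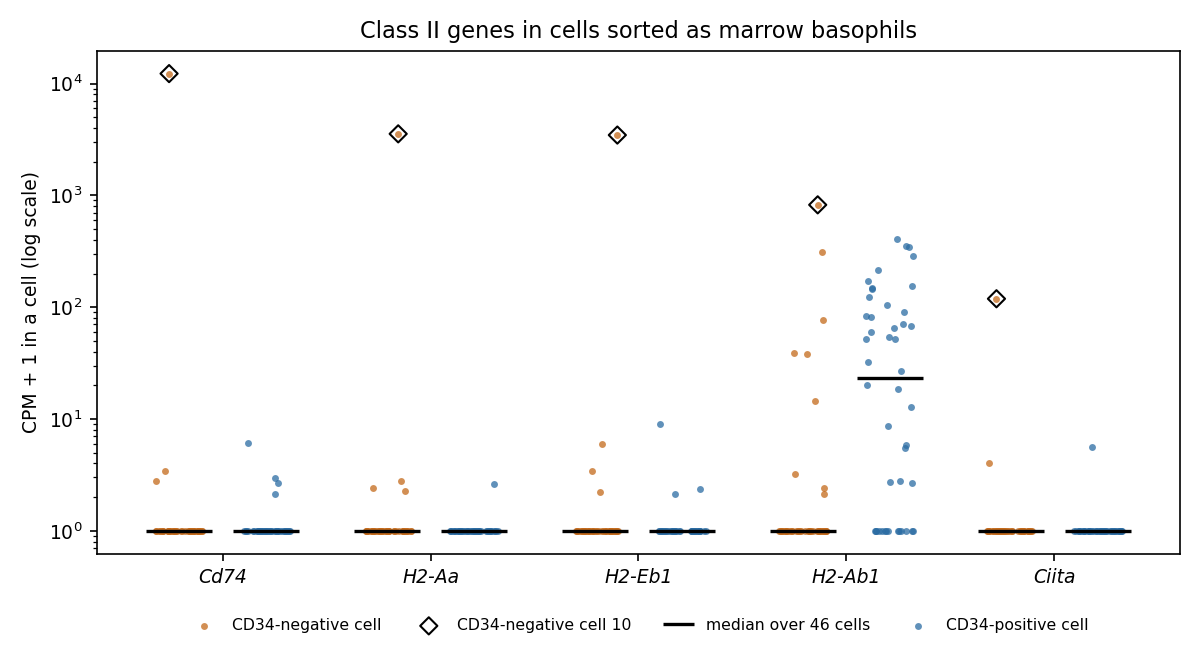
Level of the 5 class II members in each kept cell, as CPM plus 1 on a log scale, with 46 CD34-negative (orange) and 46 CD34-positive (blue) cells and medians as black lines. CD34-negative cell 10 (open diamonds) is alone at high Cd74, H2-Aa, H2-Eb1 and Ciita, whereas H2-Ab1 was read in 9 CD34-negative and 32 CD34-positive cells.

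Markers of other cell types were read to unequal extents. Ms4a1, a surface protein of B cells, had 1 read in the 92 cells, while Cd79b, which pairs with the B cell receptor, was read in 14 cells of the CD34-negative and 18 of the CD34-positive gate. Cd79a, its partner, was read in 10 and 5 cells. Its log2 fold was -1.88, and -2.91 without CD34-positive cell 37, which held 67.7% of that gate's reads and left 1.06 CPM. The other genes were read in few cells, Ebf1 in 10 and 5, Ighm in 4 and 7, and Pax5 in 2 and 1. The 6 B cell genes summed to 0 to 506 CPM in the CD34-negative cells other than cell 10 and to 0 to 590 CPM in the CD34-positive cells. Of the 8 dendritic cell genes Bst2 was the most widely read, in 12 CD34-negative and 29 CD34-positive cells, followed by Itgax in 3 and 7 and Zbtb46 in 5 and 1. Flt3 was read in 2 cells, Xcr1, Siglech and Batf3 in 1 cell each, and Cd209a in none. Of the 6 monocyte and macrophage genes Ccr2, a chemokine receptor, was read in 41 and 15 cells at 493 and 40.5 CPM, and Lyz2, a lysozyme gene, in 3 and 17 cells at 1.38 and 33.3 CPM. Without CD34-positive cell 37 Ccr2 was at 22.4 CPM in that gate, and its log2 fold moved from -3.57 to -4.40. Without cell 10 Lyz2 was at 0.060 CPM in the CD34-negative gate, and its log2 fold moved from 3.85 to 5.01. Adgre1 was read in 3 and 5 cells, Csf1r in 4 and 1, Ly6c2 in 1 and 2, and Fcgr1 only in cell 10. The part of these markers in the values of the members was not tested. The progenitor genes Kit and Mpo moved with the gate, with log2 folds of 6.55 and 4.63 (Mpo 5.45 without CD34-negative cell 36). Cd34 had 5.65, but it encodes the protein the gates were sorted on, so its fold is no separate observation. Cd34 and Kit had only 7 and 6 reads in the CD34-negative gate. The part of cell maturity in the values of the members was not tested.

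Of the 10 members, 6 had a read in at least 10 kept cells, namely the 5 class I genes and H2-Ab1, and H2-Ab1 reached that number only through the CD34-positive gate. At least 2-fold higher in the CD34-positive gate were 2 of the 6, Tap1 and H2-Ab1, beside 21.7% of all 12460 genes, and 0 were 2-fold lower, beside 10.1%. Without cell 10 the same 2 genes were past 2-fold, beside 21.9% of genes higher and 9.98% lower. Scaled by ERCC reads 4 of the 6 were 2-fold higher, with B2m at 1.63 and H2-K1 at 1.32, beside 51.9% of all genes higher and 2.25% lower. With scran size factors 1 of the 6, H2-Ab1, was higher, beside 17.3% of all genes higher and 14.5% lower. The median log2 fold of the 6 was 0.51. With 6 genes these shares say nothing particular about the members.

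The wider class I pathway was represented by 21 other genes, all of which had reads in at least 10 cells. Of these 4 were at least 2-fold higher and 2 at least 2-fold lower in the CD34-positive gate, shares near the 21.7% and 10.1% of all genes, and their median log2 fold was 0.21, near that of all genes. Without cell 10 the class Ib gene H2-M3 joined the higher group (1.01 in place of 0.97), and the loss of any 1 of 23 cells moved it past 2-fold, up to 1.36 without CD34-negative cell 18. H2-Q4 passed 2-fold only without CD34-negative cell 25 (1.19 in place of 0.85). The 3 highest besides H2-Q6 (1.88) were chaperones that fold many glycoproteins besides heavy chains. Calr, calreticulin, was at 221 and 1421 CPM, a log2 fold of 2.68 (2.63 to 2.72). Canx, calnexin, had 1.45 (1.39 to 1.51) and Pdia3, their disulfide isomerase partner, 1.32 (1.28 to 1.36). Tapbpl, a tapasin relative that edits peptides, was at 104 and 25.1 CPM, a log2 fold of -2.01 (-2.16 to -1.86), and the non-classical H2-T23 was at 748 and 358 CPM (-1.06). The second transporter chain, Tap2, was at 134 and 120.0 CPM, a log2 fold of -0.16, where Tap1 had 1.01. The immunoproteasome genes Psmb8 (0.17), Psmb9 (-0.34) and Psmb10 (0.23) stayed within 2-fold. Nlrc5, the class I coactivator, had reads in 6 cells of each gate and a log2 fold of -0.43 that rested on single cells. It was 0.58 without CD34-negative cell 32, with 57.0% of that gate's reads, and -1.75 without CD34-positive cell 8, with 70.2%.

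Of 18 other class II pathway genes 12 had reads in at least 10 cells, of which 3 were at least 2-fold higher and 1 lower in the CD34-positive gate, beside 21.7% and 10.1% of all genes. H2-DMa, Rfx5 and Ifi30 reached 10 cells only with the CD34-positive gate, and Cd86 only with the CD34-negative gate. The median log2 fold of the 12 was 0.52. H2-DMa, a chain of the peptide editor H2-DM, was at 12.4 and 49.8 CPM (log2 fold 1.93), and was read in 9 and 22 cells. Without CD34-negative cell 47, which held 42.8% of that gate's H2-DMa and 49.0% of its Rfxank reads, the log2 folds were 2.63 for H2-DMa and 2.50 for Rfxank. Rfx5 (1.67) and Rfxank (1.67) encode subunits of the factor that binds class II promoters, and overlapping genes on the other strand cover 26.8% and 33.8% of their exons. Cd86, a costimulator of T cells, was at 14.02 and 4.79 CPM (-1.37) and was read in 11 and 3 cells. CD34-positive cell 23 held 94.4% of that gate's reads, and without it the level was 0.27 CPM and the log2 fold -3.56. Leaving out cell 10 added Ifi30, a thiol reductase of antigen processing, to the higher group (1.09 in place of 0.95), and without CD34-negative cell 36 it was at 1.95. Nfya, a subunit of the factor that binds CCAAT, passed 2-fold without CD34-negative cell 13 (2.08 in place of 0.87). H2-Oa and H2-Ob, the chains of H2-DO, which restrains H2-DM, were read more widely than Cd74, H2-Aa and H2-Eb1. H2-Oa was at 198 and 148 CPM with reads in 38 and 44 cells, and H2-Ob at 106 and 113 CPM with reads in 21 and 34 cells, and neither had a read in cell 10. Genes on the other strand overlap 22.8% of the exons of H2-Oa and 10.4% of those of H2-DMa. Ctss, the protease that trims the invariant chain, had 639 reads in cell 10 and 1 in all other cells.

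**Figure D5:**
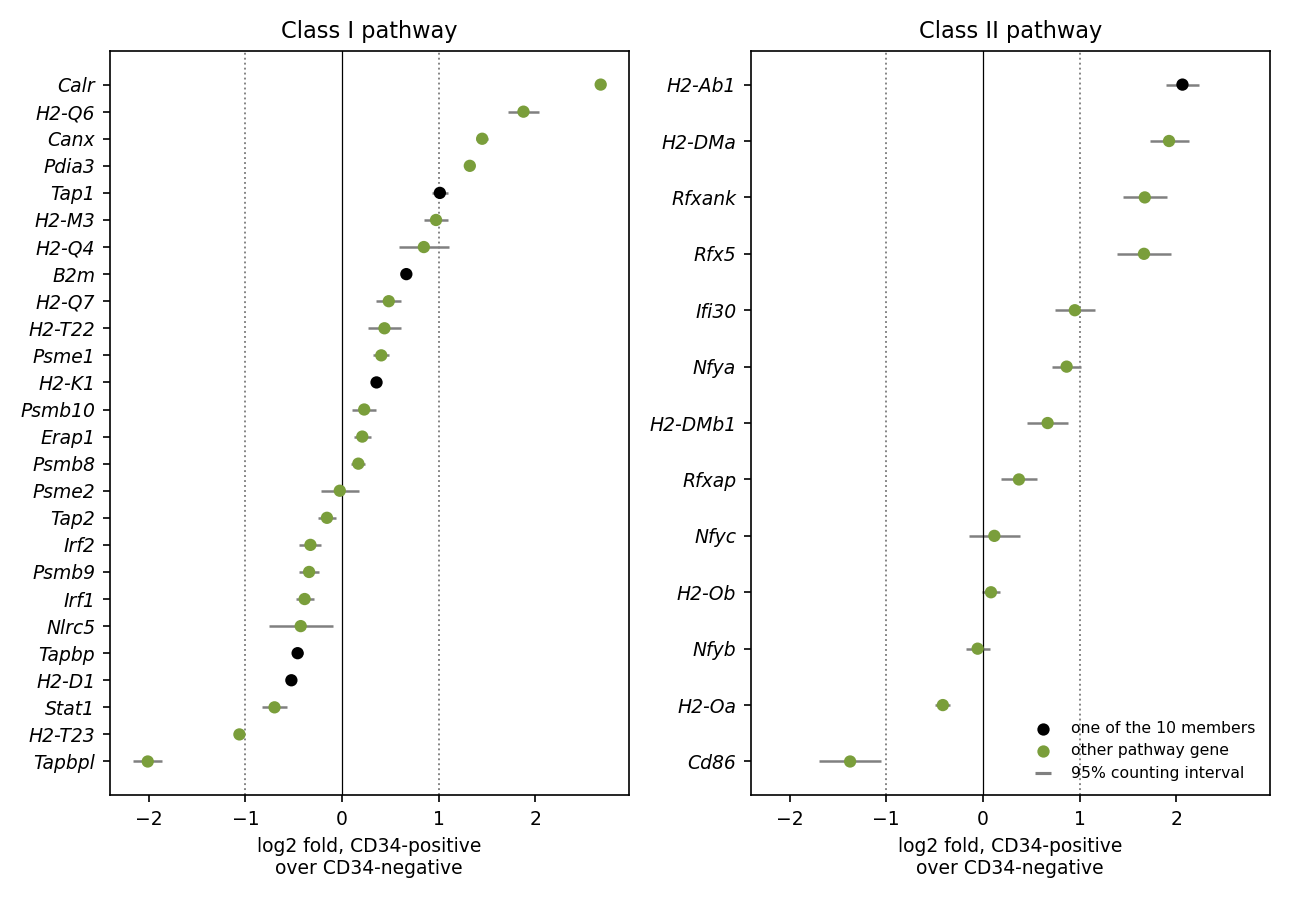
Log2 fold of summed reads, CD34-positive over CD34-negative, for class I (left) and class II (right) pathway genes with a read in at least 10 kept cells. Black points are members, green points other pathway genes, bars 95% counting intervals and dotted lines 2-fold. H2-Ab1 (2.06) and Tap1 (1.01) are the members at or past 2-fold, and Calr (2.68) and Tapbpl (-2.01) are the ends of the class I list.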

How the data were processed

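The authors deposited 1 table of whole read counts per gene and cell, not normalized, with no molecular identifiers. Reads of 50 bases came from cDNA amplified over 19 cycles with ERCC spike-ins, per the labels' protocols. GSNAP, HTSeq 0.5.3p3 and mm10 are named in the submitters' processing notes. The annotation release and strand setting are not given in the sources used here. Of all reads 32.4% fell on genes, 3.97% on ERCC, 7.68% on more than 1 gene, 33.0% on none, and 22.9% were not aligned.

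A cell was kept if it had 50000 gene reads or more, 1000 genes or more, under 20% mitochondrial and under 50% ERCC reads. Gene reads were summed per gate. Sums have exact Poisson and shares exact Clopper-Pearson 95% intervals, and fold intervals set opposite bounds against each other. The Poisson intervals cover error in counting reads only. Reads from 1 molecule are not independent, so these intervals are too narrow for molecules. The Clopper-Pearson intervals cover error in counting cells only and take the cells of a gate as independent. Per-cell detection was repeated after drawing 200000 gene reads without replacement. The fold calculation was tested on simulated data. No cells were clustered, and doublets were not called, since each well received 1 sorted cell.

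The members and lists were chosen with earlier results of these data known. Named were the members, marker genes, list genes of the largest fold with at least 10 CPM in a gate, and the 3 genes most like a member. Gene list members that illustrate a role (Tap2, Psmb8 to Psmb10, Nlrc5, Ifi30, H2-Oa, H2-Ob, Ctss) and the C1q genes were added after their values were seen. Some marker genes are not reported here. Alternatives were other scalings (ERCC, edgeR 4.0.16 TMM factors, scran 1.30.0 size factors, no mitochondrial genes), pseudocounts, cell filters and depths, and leaving out cells. Python 3.11.15, pandas 2.3.3, scipy 1.17.1 and Biopython 1.88 were used.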

Additional observations from a re-analysis of the deposited data

How the results depend on the processing

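No paired analysis was possible because the cell numbers are names without a shared source and no result was tested. The class I log2 fold of 0.025 had no stable sign. It was -0.034 as a mean of per-cell CPM, -0.21 with scran size factors, -0.14 over cells numbered 7 to 42, 0.14 with TMM factors, 0.046 without CD34-negative cell 10 and 0.99 when scaled by ERCC reads. Leaving out each cell in turn gave -0.041 to 0.080, and for Cd74 and H2-Eb1 -6.47 to 0.22 and -4.73 to 0.10. The all-gene median log2 fold was 1.04 with ERCC scaling, 0.29 with TMM factors and 0.00 with scran factors, against 0.19. ERCC scaling put 54.1% of genes past 2-fold in place of 31.7%, 51.9% of genes higher and 2.25% lower. Under it the class I list had 12 genes higher and 1 lower, and the class II list 9 and 0. With TMM factors these counts were 5 and 1, and 4 and 1, beside 24.3% of all genes higher and 8.4% lower. With scran factors they were 4 and 2, and 3 and 1, beside 17.3% and 14.5%. The direction of B2m, H2-K1, Tap1 and H2-Ab1 held under each alternative, with the lowest values 0.43, 0.12, 0.78 and 1.28. H2-D1 and Tapbp turned only with ERCC scaling (0.44 and 0.50). Without cell 10 the log2 folds of Cd74 (0.22), H2-Eb1 (0.10) and Ciita (0.053) turned. Without the top cell of each gate Cd74 was at 0.017. Of 110 single-gene values under the alternatives, 50 lay inside the counting interval of the main value, 54 lay outside with an unchanged sign, and 6 had the opposite sign.

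The share of cells with a class II read was 32.6% for the CD34-negative and 71.7% for the CD34-positive gate. In the same order it was 23.9% and 67.4% at 200000 drawn reads and 13.04% and 58.7% at 100000. It was 10.9% and 54.3% with at least 10 reads, and 15.2% in each gate without H2-Ab1. Setting cell 10 aside, dropping the top cell for pathway and marker genes, and dropping H2-Ab1 were chosen after seeing the data. Depth limits what a cell without a read shows, since a low level can be missed.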

Other observations

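The 2 cells left out for low depth entered no comparison. CD34-positive cell 3, with 31504 gene reads, had 24 reads of B2m, 32 of H2-K1, 33 of H2-D1, 13 of Tap1, 11 of Tapbp and 3 of H2-Ab1, and 0 of Cd74, H2-Aa, H2-Eb1 and Ciita. CD34-negative cell 20, with 24565 gene reads, had 3 reads of B2m and 1 each of H2-K1, H2-D1 and Tapbp, and 0 of the class II members.

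Besides the C1q genes, Mertk, Cybb and March1, also singled out after their values were seen, had nearly all their reads in cell 10. Mertk, a receptor for dying cells, had 152 reads in cell 10 and Cybb, a subunit of the phagocyte oxidase, 216, each with reads in 1 other cell. March1, a ligase that takes class II off the cell surface, was at 228 CPM in cell 10 and 0 CPM in every other kept cell. By contrast H2-DMb1 was read in 11 CD34-negative and 19 CD34-positive cells, with its highest level, 411 CPM, in cell 10 and at most 230.3 CPM elsewhere. The highest correlation of log2 CPM between cell 10 and any other cell was 0.494, where the lowest such value among the others was 0.506.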
